A study of Mus musculus with 4 samples.

Results

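MHC class I molecules carry short peptides of a cell's own proteins to its surface, where CD8+ T cells and NK cells read them. The proteasome cuts the proteins, the TAP transporter moves the peptides into the endoplasmic reticulum, and a loading complex places them on a heavy chain held by the light chain beta-2-microglobulin. Interferon gamma is known to raise the genes of this pathway together and to replace the catalytic subunits of the proteasome with inducible ones, the immunoproteasome. Nearly all nucleated cells carry class I, adipocytes included, and leukocytes carry much of it. The genes described here are 10 of the 17335 genes in the table: the heavy chains H2-K1 and H2-D1, the light chain B2m, the peptide transporter genes Tap1 and Tap2, the loading chaperone gene Tapbp, the immunoproteasome subunits Psmb8, Psmb9 and Psmb10, and the transactivator gene Nlrc5. They were chosen by symbol for their place in the pathway, and each symbol had 1 row.

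RNA-seq was performed on gonadal white adipose tissue (gWAT) of female mice kept for 18 weeks on a high-fat diet (HFD) with 60% of calories from fat, whose age is not given in the sources used here. Equal amounts of RNA from 4 animals per group were pooled, so the fl/fl group and the AD1KO group each have 1 library. Control fl/fl mice carry Dnmt1 with loxP sites around exons 4 and 5 and no deletion, and AD1KO mice are the same floxed line with adiponectin-Cre, which is active in adipocytes, so other cells of the tissue keep Dnmt1. The comparison asks how the pathway differed in gWAT when adipocytes lacked this DNA methyltransferase. Each value is FPKM, in which fragments are divided by the length of the transcript and the depth of the library. Log2 ratios set AD1KO over fl/fl after 0.01 was added to each FPKM, and a gene is called lower or higher at a ratio of 0.5 or more in either direction. Intervals are exact Clopper-Pearson 95% intervals on estimated reads and cover counting error only. With 1 pool per group no test between conditions was possible, and the spread between animals is unknown.

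The estimated reads summed to 17853391 in fl/fl and 17633343 in AD1KO. Dnmt1 stood at 6.99 FPKM in fl/fl and at 3.33 FPKM in AD1KO, a log2 ratio of -1.07 (interval -1.27 to -0.87), measured over its whole transcript and not over the deleted exons. Adipocyte markers summed to 18416.1 FPKM in fl/fl against 27478.7 in AD1KO, with 7 of 8 higher and none at 0, so the defining genes of the labelled tissue were present. Leukocyte markers were lower in AD1KO, and their values stand beside the pathway's results below.

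All 10 genes had a lower FPKM in AD1KO than in fl/fl, and 9 of them passed the threshold, where 19.1% of the 15839 genes that reached 0.1 FPKM in either library were lower. None of the 10 was higher, against 14.3% of all genes. Their median log2 ratio was -1.07, beside -0.04 for all genes tested. A ratio of -1 or below was seen for 6 of the 10 and for 8.95% of all genes, and the whole counting interval lay below -0.5 for 8 of the 10 and for 8.31% of all genes. Depth was ample for each, since the gene with the fewest reads, Nlrc5, still had 502 in AD1KO. Among the 5785 genes of 1000 or more reads in all, which include the 10, 12.9% were lower. The 10 genes took 1.24% of all estimated reads in fl/fl and 0.854% in AD1KO.

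**Figure D1:**
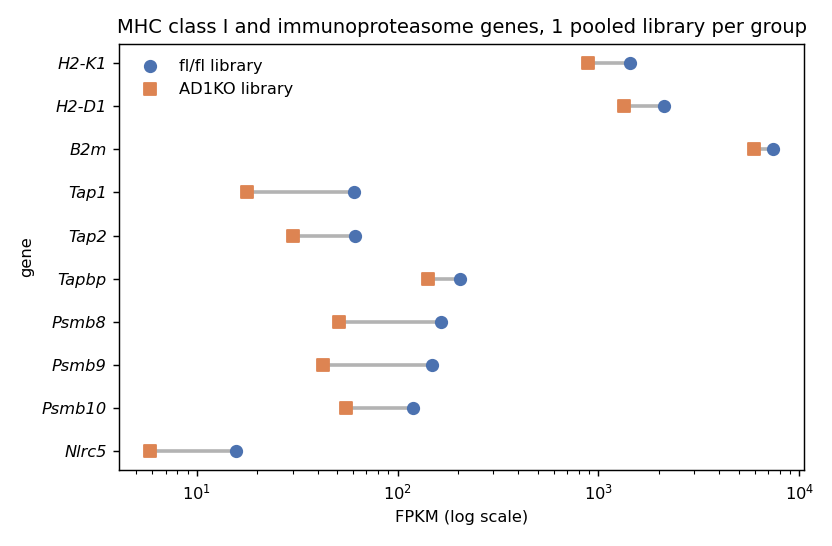
Expression of the 10 genes in the fl/fl library (circles) and the AD1KO library (squares), in FPKM on a log axis, with a line joining the values of a gene. Each square lies to the left of its circle, by a short distance for B2m and by a long one for Tap1, Psmb8, Psmb9 and Nlrc5.

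The chains that reach the surface were the most abundant of the 10, and B2m differed least. H2-K1, a classical heavy chain (gene 14972, mm9 chromosome 17, 34132962 to 34137278, minus strand), measured 1441 FPKM in fl/fl against 889.8 in AD1KO. Its log2 ratio was -0.70 (interval -0.72 to -0.67), which leaves 61.8% of the fl/fl level. H2-D1, the other classical heavy chain in the table with more than a trace of expression (gene 14964, chromosome 17, 35399675 to 35404444, plus strand), measured 2124 FPKM in fl/fl against 1336 in AD1KO, a log2 ratio of -0.67 (interval -0.69 to -0.65). The heavy chains kept their proportion to each other, with 1.47 FPKM of H2-D1 per FPKM of H2-K1 in fl/fl and 1.5 in AD1KO. B2m, the light chain that every class I molecule shares (gene 12010, chromosome 2, 121973422 to 121978819, plus strand), measured 7393 FPKM in fl/fl against 5948 in AD1KO. It was the only one of the 10 short of the threshold, at a log2 ratio of -0.31 (interval -0.33 to -0.30). By FPKM B2m ranked 4 of all genes in fl/fl and 5 in AD1KO. Per FPKM of H2-K1 and H2-D1 together there were 2.07 FPKM of B2m in fl/fl against 2.67 in AD1KO, a log2 change of 0.37 (interval 0.35 to 0.39).

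The genes that deliver and load peptides differed by unequal amounts. Tap1 and Tap2 encode the subunits of the transporter that carries peptides into the endoplasmic reticulum. Tap1 (gene 21354, chromosome 17, 34324498 to 34334170, plus strand) was at 60.45 FPKM in fl/fl against 17.71 in AD1KO, 3.41-fold lower, with a log2 ratio of -1.77 (interval -1.88 to -1.66). Tap2 (gene 21355, chromosome 17, 34340472 to 34353266, plus strand) was at 61.6 FPKM in fl/fl against 30.05 in AD1KO, with a log2 ratio of -1.04 (interval -1.14 to -0.94). The transporter genes were thus level in fl/fl, at 0.981 FPKM of Tap1 per FPKM of Tap2, and unequal in AD1KO, at 0.589, a log2 change of -0.74 (interval -0.88 to -0.59). Tapbp, or tapasin, which bridges the transporter and the empty heavy chain (gene 21356, chromosome 17, 34052844 to 34066235, plus strand), measured 204 FPKM in fl/fl against 142 in AD1KO. Its log2 ratio was -0.52 (interval -0.57 to -0.48), so its counting interval crossed the threshold, and it lay above -0.5 under the 3 other scalings of the libraries tried. Of the other 6 genes of peptide loading and trimming, 1 was lower and none higher, with a median log2 ratio of -0.31. That gene was Tapbpl, a tapasin-related peptide editor, at 20.4 FPKM in fl/fl against 8.75 in AD1KO (log2 ratio -1.22). The general chaperones of the endoplasmic reticulum that also serve class I were nearer to even, with log2 ratios of -0.23 for Calr, -0.28 for Canx and -0.34 for Pdia3. Erap1, which trims peptides to length, was at 11.2 FPKM in fl/fl against 8.37 in AD1KO (log2 ratio -0.42).

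The inducible catalytic subunits of the proteasome were far lower in AD1KO, while their constitutive counterparts were not called. Psmb8 (gene 16913, chromosome 17, 34334666 to 34338399, plus strand) takes the place of Psmb5, the subunit with chymotrypsin-like activity. It was at 164 FPKM in fl/fl against 51.1 in AD1KO, a log2 ratio of -1.68 (interval -1.79 to -1.58). Psmb9 (gene 16912, chromosome 17, 34318932 to 34324709, minus strand) takes the place of Psmb6 and had the lowest ratio of the 10 genes. It was at 148 FPKM in fl/fl against 42.6 in AD1KO, with a log2 ratio of -1.80 (interval -1.95 to -1.66). Psmb10 (gene 19171, chromosome 8, 108459628 to 108462292, minus strand) takes the place of Psmb7 and measured 119.1 FPKM in fl/fl against 55.2 in AD1KO, with a log2 ratio of -1.11 (interval -1.21 to -1.01). In the fl/fl library inducible and constitutive transcripts were thus present at like levels. Psmb5 was at 143 FPKM in fl/fl against 136 in AD1KO (log2 ratio -0.07, interval -0.17 to 0.02), Psmb6 at 120.1 and 94.1 (-0.35, -0.45 to -0.25) and Psmb7 at 151 and 153 (0.02, -0.06 to 0.11).

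A ratio taken within a library does not depend on how libraries are scaled. There were 1.14 FPKM of Psmb8 per FPKM of Psmb5 in fl/fl against 0.375 in AD1KO, a log2 change of -1.61 (interval -1.75 to -1.47). Psmb9 over Psmb6 went from 1.23 in fl/fl to 0.452 in AD1KO, a log2 change of -1.45 (interval -1.62 to -1.28). Psmb10 over Psmb7 went from 0.789 to 0.36, a log2 change of -1.13 (interval -1.27 to -1.0). The same order held for each pair, with the inducible transcript at 0.789 or more of its counterpart in fl/fl and below 0.5 of it in AD1KO. In all, 14 such ratios between genes of the pathway were computed.

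**Figure D2:**
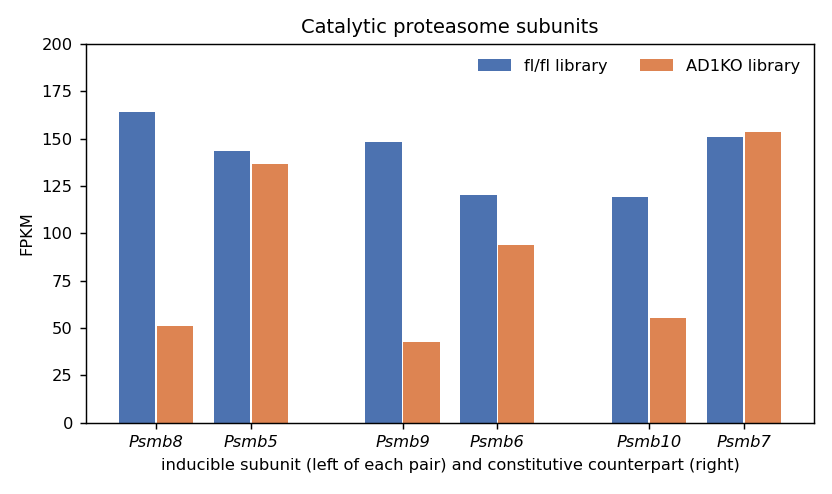
FPKM of each inducible catalytic subunit (left of a pair) and of its constitutive counterpart (right), with a bar for the fl/fl library and one for the AD1KO library. The bars of Psmb8, Psmb9 and Psmb10 drop from 119.1 FPKM or more to 55.2 or less, and those of Psmb5, Psmb6 and Psmb7 stay between 94.1 and 153 FPKM.

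The rest of the proteasome stayed near even. Of the 11 other subunits of the 20S core none was lower or higher, with a median of -0.17 and a range from -0.42 to -0.07. None of the 17 subunits of the 19S regulator was called either (median -0.08, from -0.20 to 0.11). Psme1 and Psme2, which form the activator that interferon gamma also raises, were lower. Psme1 was at 228 FPKM in fl/fl against 98.5 in AD1KO, a log2 ratio of -1.21, and Psme2 at 282 and 161, a log2 ratio of -0.80. Among 8 other activators, inhibitors and assembly chaperones, only Psmg4 was lower, with a log2 ratio of -0.80, and Pomp, a chaperone of proteasome assembly, was at 279 FPKM in fl/fl against 210.4 in AD1KO (log2 ratio -0.41).

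Nlrc5, which is recruited to class I promoters and drives their transcription, was the least abundant of the 10. The gene (434341, chromosome 8, 96996663 to 97051172, plus strand, listed in the mm9 annotation as a noncoding RNA) was at 15.65 FPKM in fl/fl against 5.88 in AD1KO, with a log2 ratio of -1.41 (interval -1.56 to -1.26). Of the other 14 factors listed for class I transcription, 7 were lower and none higher, with a median of -0.47. Irf1, the interferon-induced activator of many of these genes, was at 74.7 FPKM in fl/fl against 20.1 in AD1KO, a log2 ratio of -1.90. Stat2, which carries the type I interferon signal to the nucleus, was at 13.01 and 4.89 FPKM (-1.41). Irf9, Nfya, Nfkb1 and Irf2 had log2 ratios between -0.77 and -0.62. Several of the listed factors together hold Nlrc5 at the promoter. Of these, the transcripts of Rfx5 (log2 ratio -0.31), Rfxap (-0.15) and Rfxank (0.03) were not called. Among the Nfy genes, Nfya was lower at -0.64, while Nfyb (-0.20) and Nfyc (-0.16) were not called. Nlrc5 per FPKM of Ciita, its counterpart for class II genes, was 1.6 in fl/fl against 1.79 in AD1KO, a log2 change of 0.17 whose interval (-0.07 to 0.41) held 0.

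Interferon gamma itself was scarce. Ifng was at 2.12 FPKM in fl/fl against 0.21 in AD1KO, from an estimated 41 and 4 reads, a log2 ratio of -3.28 (interval -5.28 to -1.88). Socs1, an inhibitor induced by the same signal, was at 11.7 and 2.45 FPKM (log2 ratio -2.25). The receptor and kinase genes were not called, with log2 ratios of -0.12 for Ifngr1, -0.41 for Ifngr2, -0.13 for Jak1 and -0.49 for Jak2.

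From the lowest log2 ratio upward the order was Psmb9, Tap1, Psmb8, Nlrc5, Psmb10, Tap2, H2-K1, H2-D1, Tapbp and B2m. The interval of the difference between neighbours held 0 in 4 of the 9 steps, those between Psmb9 and Tap1, Tap1 and Psmb8, Psmb10 and Tap2, and H2-K1 and H2-D1. The step from Psmb8 to Nlrc5 was -0.27 (interval -0.45 to -0.09), that from Tap2 to H2-K1 -0.34 (interval -0.44 to -0.24) and that from Tapbp to B2m -0.21 (interval -0.26 to -0.16). Peptide supply genes thus stood at the low end of the order and the surface molecules and Tapbp at the high end.

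**Figure D3:**
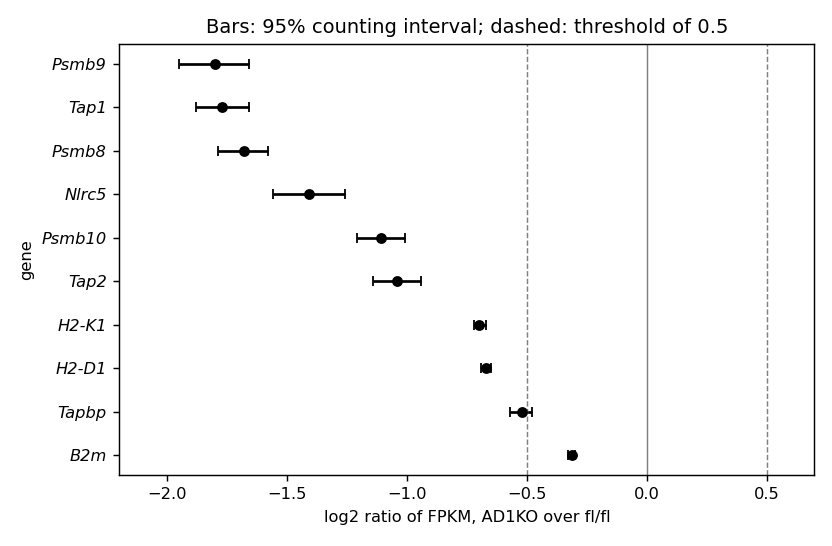
Log2 ratio of FPKM in AD1KO over fl/fl for the 10 genes in order, with bars for the 95% counting interval, a solid line at 0 and dashed lines at the threshold of 0.5 in either direction. The points run from -1.80 for Psmb9 to -0.31 for B2m.

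The heavy chain family is a set of near-identical genes whose reads can be shared, so single values of its members are uncertain and their sum is less so. Summed over the 13 entries of the H2-K, H2-D, H2-Q and H2-T genes, an estimated 125992 reads in fl/fl stood against 72885 in AD1KO, a log2 ratio of -0.77 (interval -0.79 to -0.76). H2-K1 and H2-D1 held 79.2% of these reads in fl/fl and 84.6% in AD1KO. The 11 other entries together had a log2 ratio of -1.21 (interval -1.24 to -1.18), which is lower than that of H2-K1 and H2-D1 together by 0.53 (interval of the difference -0.56 to -0.49). Of the 13 non-classical heavy chains with at least 0.1 FPKM in 1 library, the H2-M genes included, 11 were lower and 1 higher, with a median of -1.27. H2-T23, which encodes Qa-1 and is a ligand of NK receptors, was at 270.0 FPKM in fl/fl against 78.8 in AD1KO (log2 ratio -1.78). H2-Q4 was at 171 and 85.9 FPKM (-0.99), H2-Q7 at 104 and 45.3 (-1.20) and H2-Q8 at 128 and 44.05 (-1.53). H2-Q10, known as a secreted heavy chain, went the other way, from 11.6 FPKM in fl/fl to 22.3 in AD1KO (log2 ratio 0.94, interval 0.72 to 1.17).

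The class I-like molecules encoded outside the MHC did not share the direction. Of 7, 1 was lower and 3 were higher, with a median of 0.49. The lower gene was Procr (13.96 FPKM in fl/fl, 9.0 in AD1KO, log2 ratio -0.63). Those higher were Hfe, Azgp1 (1.08 and 2.76 FPKM, 1.35) and Cd1d2, which rests on an estimated 7 and 11 reads (0.63, interval -0.83 to 2.27). Hfe, which controls iron uptake, was at 38.5 FPKM in fl/fl against 63.4 in AD1KO (log2 ratio 0.72), and Cd1d1, which presents lipids to NKT cells, at 92.6 and 130.5, just short of the threshold (0.49). Fcgrt, which pairs with B2m to carry IgG and albumin, was at 186 and 169 FPKM (-0.14). The genes listed as receptors of class I molecules, or as relatives of such receptors, were all lower, 10 of 10, with a median of -1.75. Their ratios ran from -2.78 for Klra8, an NK receptor, to -1.42 for Klrc1, which pairs with Klrd1 to read Qa-1. Klra8 was at 2.47 FPKM in fl/fl against 0.35 in AD1KO, from an estimated 43 and 6 reads (interval -4.35 to -1.59). Cd8a, the coreceptor of cytotoxic T cells, was at 4.66 FPKM in fl/fl against 1.42 in AD1KO (log2 ratio -1.71).

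Leukocyte markers were lower in the same library. The 4 general leukocyte markers were all lower, with log2 ratios from -1.59 for Cd52 to -1.16 for Laptm5, and Ptprc, the pan-leukocyte gene, was at 27.3 FPKM in fl/fl against 11.3 in AD1KO (-1.27). All 8 macrophage markers were lower (median -1.04, summed FPKM 3467.9 in fl/fl and 1716.7 in AD1KO), as were 6 of 6 T cell markers (median -1.61, summed 69.8 and 21.6), 6 of 6 NK and cytotoxic markers (-2.31, 51.9 and 12.5), 3 of 5 B cell markers (-0.68, 88.5 and 58.4) and 4 of 5 dendritic cell markers (-1.12, 15.5 and 7.5). No marker on these lists was at 0 in either library. All 10 genes of class II presentation were lower, with a median of -1.55. Endothelial markers had a median of 0.32 and stromal markers one of 0.18, with none of 5 called in each, and 4 of 4 mesothelial markers were higher (median 0.79). In these bulk samples fewer cells of a type and less RNA per cell cannot be told apart, and the part of leukocyte content in the ratios of the 10 genes was not tested.

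**Figure D4:**
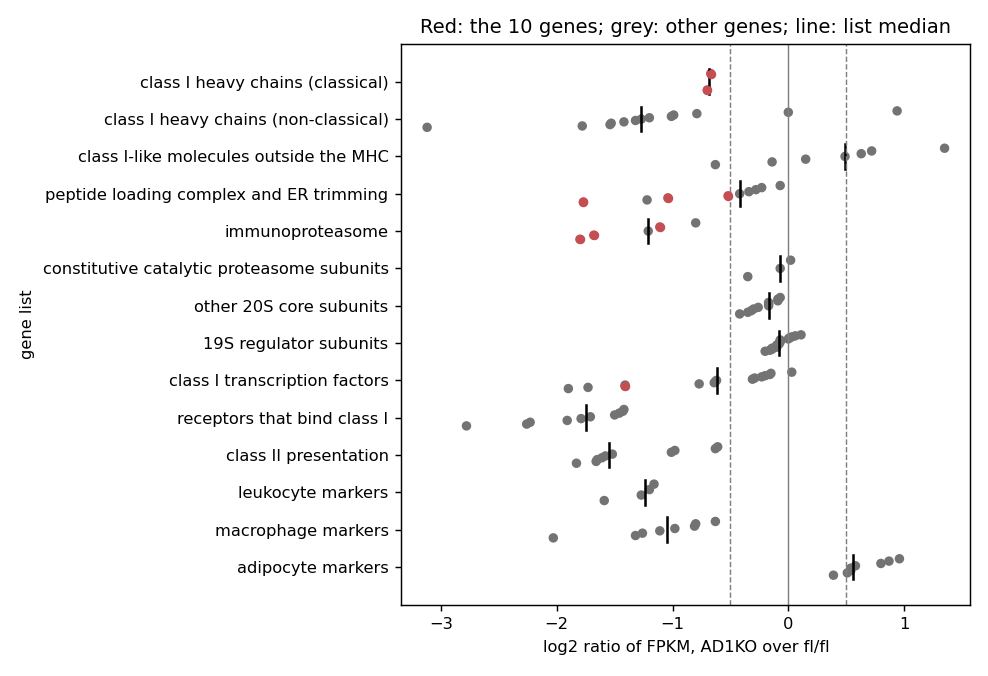
Log2 ratio of FPKM in AD1KO over fl/fl for each gene of 14 lists, with the 10 genes in red, other genes in grey, a black line at each list's median and dashed lines at the threshold. The immunoproteasome (median -1.21), the listed class I receptors and relatives (-1.75) and class II presentation (-1.55) lie to the left. The constitutive subunits (-0.07) and the 19S regulator (-0.08) lie near 0, and the adipocyte markers (0.56) to the right.

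Of the 10 genes 7 lie on chromosome 17, 2 on chromosome 8 and 1 on chromosome 2. Psmb9, Tap1, Psmb8 and Tap2 form a cluster of 34335 bases (chromosome 17, 34318932 to 34353266), in which Psmb9 is read away from the other genes. The RefSeq start sites of Psmb9 and Tap1 have 225 bases between them, and their annotated gene bodies overlap by 212 bases. It is not stated whether counting used strand, so reads in that overlap could be given to either gene. Zbtb22 lies within the annotated span of Tapbp on the same strand, so strand could not separate reads where the pair overlap. The log2 ratios of Psmb9 and Tap1 were -1.80 and -1.77. Tap1 per FPKM of Psmb9 was 0.408 in fl/fl and 0.416 in AD1KO (log2 change 0.03, interval -0.15 to 0.21). Between Tapbp and H2-D1, a stretch of 1352 kilobases that holds the 7 genes, a further 73 genes could be compared. The 8 genes of the class II list among them were all lower. The other 65 include the class II gene H2-Eb2 (1.0 FPKM in fl/fl, 0.45 in AD1KO, log2 ratio -1.13). Of these 65, 17 were lower (26.2%, against 19.1% of all genes compared), 2 higher and 46 neither, with a median of -0.20. Calls in this stretch used ratios rounded to 2 decimals. H2-Ke6 (33.21 FPKM in fl/fl, 23.51 in AD1KO) was thus called lower at -0.50, though its unrounded ratio falls just short of the threshold. Those called lower included leukocyte genes such as Aif1 (81.7 FPKM in fl/fl, 18.6 in AD1KO, log2 ratio -2.14) and Lst1 (109 and 33.8, -1.69), and Ppt2, a lysosomal thioesterase, was among them at 46.2 and 32.3 FPKM (-0.52). Some called lower had few reads and intervals that held 0, such as Ly6g6c (0.2 and 0.07 FPKM, interval -7.28 to 2.07) and Cyp21a1 (0.5 and 0.31, -1.96 to 0.57). The intervals of the 2 called higher, Ly6g6d (-0.89 to 3.82) and Ly6g5b (-1.05 to 2.37), also held 0.

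**Figure D5:**
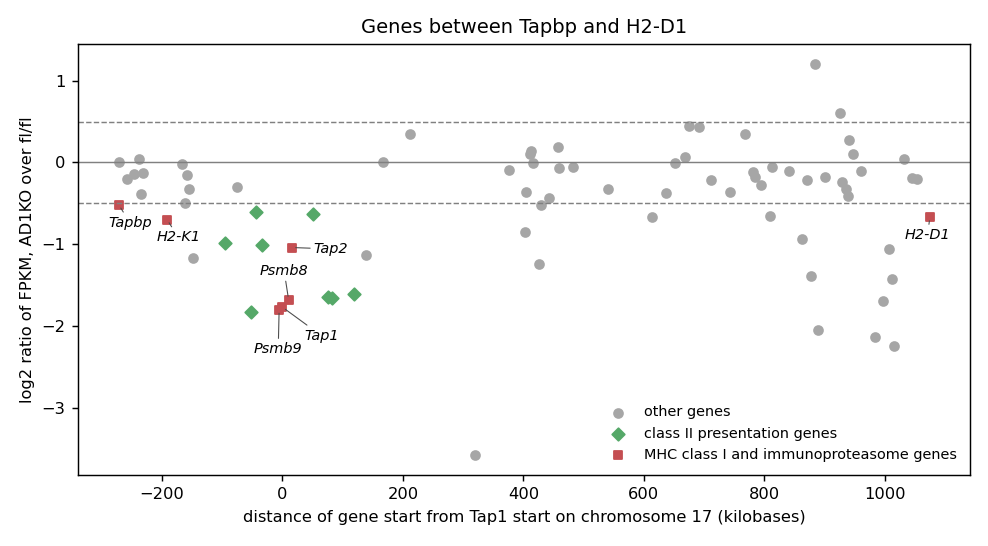
Log2 ratio of FPKM in AD1KO over fl/fl for the 80 genes between Tapbp and H2-D1, placed by the distance of the gene's start from that of Tap1 in kilobases, with dashed lines at the threshold. Psmb9, Tap1 and Psmb8 sit together between -1.80 and -1.68, the genes of the class II list (diamonds) between -1.83 and -0.61, and 46 of the 65 other genes (grey) between the dashed lines. H2-Ke6 (grey), at -0.50 after rounding, lies on the lower dashed line. The lowest grey point, Btnl6, is listed at 0 in AD1KO and has no fold.

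Since 9 of these genes were lower together, their promoters were searched for 5 short sequences known from class I promoters, on both strands, from 250 bases before to 50 after each RefSeq start. Windows were given for 8 of the 10 genes, and not for Tap2 and Nlrc5. The kappa B letters (GGG, any 2 bases, TT, any base and CC), bound by NF-kappa B, stood in B2m, H2-D1 and H2-K1, and in 5.48% of 27018 genes with a window. The interferon-stimulated response element (ISRE) in the form of GAAA, any 2 bases and GAAA stood in B2m (3.99% of genes). A second form of it, GAANTGAAA, which was added after the sequences were seen, stood in H2-D1 and H2-K1 (2.15% of genes), and some sites can match both forms. The X2 box TGACGC, part of the stretch at which Nlrc5 is recruited, stood in H2-D1 and H2-K1 (8.38%). The gamma-activated site TTCNNNGAA, through which interferon gamma acts, stood in Psmb8 (9.55%) and matches itself on both strands. No motif of the 5 was found in the windows of Tap1, Tapbp, Psmb9 or Psmb10, which says only that these letters are not there. The windows of Psmb9 and Tap1 share 275 bases, so they are largely the same sequence and not separate observations.

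The following 30 bases, from RefSeq and placed by exact match on mm9, show the element that H2-K1 and H2-D1 share, and how it stands in 3 non-classical genes. Each is written 5′ to 3′ along the gene and ends with the ISRE, read here from its other strand. Capitals mark the kappa B letters on the left and the ISRE on the right, and in H2-Q4 they cover 2 overlapping kappa B matches that start 1 base apart. Those of H2-K1 lie at chr17:34137374-34137403 on the minus strand, and the others on the plus strand at chr17:35399868-35399897 for H2-D1, chr17:35516388-35516417 for H2-Q4, chr17:35575966-35575995 for H2-Q7 and chr17:35606858-35606887 for H2-Q10.
H2-K1: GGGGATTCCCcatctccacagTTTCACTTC
H2-D1: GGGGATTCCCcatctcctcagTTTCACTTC
H2-Q4: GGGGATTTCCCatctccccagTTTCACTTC
H2-Q7: tGGGGATTCCCatctccccagTTTCACTTC
H2-Q10: gaggactccccatctccccagTTTCACTTC
H2-K1 and H2-D1 were identical at 29 of these 30 bases and had log2 ratios of -0.70 and -0.67. H2-Q4 matched H2-K1 at 28 bases and H2-Q10 at 27. H2-Q7, whose kappa B letters lie 1 base closer to the ISRE, like the second match in H2-Q4, matched at 25. The windows of H2-Q10, with a log2 ratio of 0.94, and of H2-T23, with one of -1.78, each held a form of the ISRE and no match to the kappa B letters. The H2-D1 piece lies before the RefSeq start, from -171 to -142, but inside a longer transcript of the mm9 annotation.

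The X2 letters followed at the same distance, with their first base 70 bases after that of the kappa B letters in both H2-K1 and H2-D1. That spacing was read off these genes after their sequences were seen, so a search for it was bound to return them. It returned no other gene of the 27018. The 20 bases around the X2 box, in capitals, lie at chr17:34137321-34137340 on the minus strand for H2-K1 and at chr17:35399931-35399950 on the plus strand for H2-D1.
H2-K1: acactgtTGACGCgcagtca
H2-D1: acactgaTGACGCgctggca

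B2m (log2 ratio -0.31) and Psmb8 (-1.68) are shown as the other genes with a match. Psmb9 and Tap1, with lower ratios than Psmb8, had no match in their largely shared window. The gamma-activated site stood in 1 of the 8 windows, near the share of 9.55% over all genes. In B2m (chr2:121973281-121973309, plus strand, from -142 to -114 counted from the start) the first capitals mark the ISRE and the second the kappa B letters, read from the other strand. In Psmb8 (chr17:34335033-34335061, plus strand, from -107 to -79 and thus before the RefSeq start, but inside a longer annotated transcript) the capitals mark the gamma-activated site.
B2m: catGAAACTGAAAatgGGAAAGTCCCttt
Psmb8: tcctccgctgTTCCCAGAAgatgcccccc
A match of letters is a description and was not tested for binding.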

How the data were processed

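Expression was taken from the table the authors deposited, in which a service provider gave FPKM per gene for 1 poly(A) library per group, aligned to mm9. The aligner and the quantifying program are not given in the sources used here. The table's columns of fold change, P-value and false discovery rate hold the authors' own comparison and were not used. The samples of reduced representation bisulfite sequencing were not analysed here.

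The value 0.01, which stands for 0, was set back to 0. The plan allowed for counts or FPKM, and its settings for FPKM were used. Reads were estimated from FPKM and transcript length. Low values (0.1 to 1 FPKM, transcripts under 3000 bases) step in whole reads at depths of 17740000 (fl/fl) and 17550000 (AD1KO) with 119 bases taken off the length, and 74.4% and 74.5% of them then lay within 0.1 of a whole number, so reads are estimates. The 15839 genes that reached 0.1 FPKM in either library were compared. Ratios of 2 genes within a library have exact conditional intervals of the odds ratio of reads, or the normal interval of its logarithm where all 4 counts were large. The median compared gene had 574 reads over both libraries. Positions are from GENCODE M1, on mm9, and gene IDs are those of the table.

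The 10 genes and 23 gene lists were chosen with earlier results of these data known. Genes were named by these rules: the 10, Dnmt1, any gene of the pathway lists, the extremes of the marker lists and genes lying between the 10. Ptprc, Cd8a, Ciita and Pomp were added for their function after their values were seen. Scaling, pseudocount, filter, threshold and choice of counterpart were varied. Depth estimates and intervals were tested on simulated libraries. Software was Python 3.11.15 with SciPy 1.17.1, NumPy 2.4.6, Matplotlib 3.10.9 and pandas 2.3.3.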

Additional observations from a re-analysis of the deposited data

How the results depend on the processing

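All 10 genes stayed below 0 under 3 other scalings of the libraries, pseudocounts of 0.1 and 1 FPKM and ratios of estimated reads, with log2 ratios between -1.80 and -0.22. The number lower was 8 in place of 9 under each scaling, since Tapbp then lay above -0.5 (-0.43 by the upper quartile). The upper quartile raised all ratios by 0.09, more than the size of the ratios of Psmb5 and Psmb7, and over all genes turned 3029 lower and 2265 higher into 2609 and 2796. With a pseudocount of 1 FPKM 1661 genes were lower and 965 higher. With the median of the other 20S core subunits as the reference the log2 change was -1.63 for Psmb9 and -0.94 for Psmb10. The summed heavy chains had a log2 ratio of -0.68 by the upper quartile and -1.21 without H2-K1 and H2-D1. Leaving out each gene in turn gave a median of -1.11 to -1.04. No paired analysis was possible because each group has 1 pooled library, and none could be left out. Depth does not limit the 10 genes, but in AD1KO Ifng rests on 4 reads and Klra8 on 6.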
